A study of Mus musculus with 12 samples.

Results

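The glutathione transferases and quinone reductases described here are 10 genes of phase II detoxification, read in mouse yolk sac with and without ectopic Norrin: the alpha class transferases Gsta3 and Gsta4, the mu class Gstm1, Gstm2 and Gstm5, the theta class Gstt1, the membrane-bound Mgst1 and Mgst3, and the quinone reductases Nqo1 and Nqo2. They are 10 of the 18193 genes measured and hold 18 of the 45101 probe sets of the Affymetrix mouse expression array. A probe set counted as a gene's own where the platform annotation paired it with that gene alone. Where a gene had several, the probe set with the highest mean over the 12 arrays was used and the others stand beside it, so each probe set was chosen by that mean. The mean weighs the 4 groups equally and is given as a description only: in Gstm1 the chosen probe set averaged 11.54 (log2) against 11.26 for the next, and in Nqo2 8.25 against 7.77.

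The study had 4 groups of 3 arrays: yolk sacs of wild type and of Z/Norrin embryos, each taken 8.5 days (E8.5) or 10.5 days (E10.5) into gestation. The embryos of every group were of both sexes and of mixed C57Bl6/129 strain. Z/Norrin mice carry a conditional over-expression allele of the Norrin gene, whose secreted product binds the receptor Frizzled4, and are called Norrin below. Each array held RNA of pooled yolk sacs from 3 to 5 embryos. The Cre driver of the allele is not given in the sources used here, so the cells that made Norrin are not known here. Litter, sex ratio and hybridisation day are not given either.

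Glutathione transferases join the thiol of glutathione to electrophiles such as lipid aldehydes, epoxides and drug metabolites, which makes these compounds soluble and marks them for export. Quinone reductases reduce quinones fully to hydroquinones, without the semiquinone radical that would otherwise react with oxygen. Many of these genes are induced by the transcription factor NRF2 (Nfe2l2) when its inhibitor KEAP1 is modified, through a DNA motif called the antioxidant response element, and some by the aryl hydrocarbon receptor (AHR) through the xenobiotic response element. In the yolk sac the visceral endoderm, an absorptive epithelium with many functions of fetal liver, meets maternal compounds before the liver does.

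Promoter windows from RefSeq (build GRCm38.p6), from 250 bases before a transcript start to 50 bases after it, were at hand for 9 of the 10 genes, in 12 windows; for Gsta4 none was. The windows shown are those of Gsta3 and Nqo2, the 2 genes past the threshold at E10.5, and of Gstm5, a transferase with an effect near 0, so that they can be set beside each other. Capitals mark matches, on either strand, to the core of the antioxidant response element (TGACNNNGC) or of the xenobiotic response element (GCGTG, or CACGC when read on the other strand).
Gsta3, chr1:21240335-21240634, plus strand: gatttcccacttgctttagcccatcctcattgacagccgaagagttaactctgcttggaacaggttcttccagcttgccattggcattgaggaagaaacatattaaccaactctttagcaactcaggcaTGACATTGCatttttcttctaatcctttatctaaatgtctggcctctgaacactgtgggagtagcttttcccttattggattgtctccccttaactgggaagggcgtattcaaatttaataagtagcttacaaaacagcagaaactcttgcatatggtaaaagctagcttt
Nqo2, chr13:33964409-33964708, plus strand: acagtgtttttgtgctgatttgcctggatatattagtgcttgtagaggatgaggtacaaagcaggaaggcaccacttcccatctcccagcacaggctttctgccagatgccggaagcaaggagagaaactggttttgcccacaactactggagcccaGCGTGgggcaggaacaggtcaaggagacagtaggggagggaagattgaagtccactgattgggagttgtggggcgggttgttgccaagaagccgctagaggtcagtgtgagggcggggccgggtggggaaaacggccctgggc
Gstm5, chr3:107895604-107895903, plus strand: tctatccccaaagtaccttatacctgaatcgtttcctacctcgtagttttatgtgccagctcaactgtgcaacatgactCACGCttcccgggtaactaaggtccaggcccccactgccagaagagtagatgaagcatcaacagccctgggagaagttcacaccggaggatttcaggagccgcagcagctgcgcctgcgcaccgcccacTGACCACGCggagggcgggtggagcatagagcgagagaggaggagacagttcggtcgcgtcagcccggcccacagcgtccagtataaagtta
The Gsta3 window held 1 antioxidant response element core, TGACATTGC, at -121 from the start. The Gstm5 window held 1 too, TGACCACGC at -42, with a xenobiotic response element core at -38 that overlaps it and another at -171. The Nqo2 window held no antioxidant response element core and 1 xenobiotic response element core at -93, and a further Nqo2 window held 1 at -137. Over the 10 genes, 3 of 12 windows held an antioxidant response element core (Gsta3, Gstm5 and Mgst1), against 12.392% of the 32851 windows of all genes. For the xenobiotic response element core it was 6 of 12 windows (both of Gstm1, both of Nqo2, and those of Gstm5 and Mgst3) against 32.386%. The Gstm1 windows overlap and hold 1 and the same match, which is counted in both. For TATAAA it was 3 of 12 against 13.616%. A match is a run of letters and not a bound site.

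The genes lie at chr1:21240565-21265575 (Gsta3), chr9:78191966-78209349 (Gsta4), chr10:75783813-75798584 (Gstt1), chr6:138140527-138156755 (Mgst1), chr1:167371966-167393841 (Mgst3), chr8:107388225-107403205 (Nqo1) and chr13:33964655-33988465 (Nqo2) on GRCm38.p6. The 3 mu class genes are neighbours on chromosome 3, at chr3:107895854-107898685 (Gstm5), chr3:107981702-107986420 (Gstm2) and chr3:108012250-108017973 (Gstm1). Mu class sequences are alike, and the chosen Gstm1 probe set is of a kind (suffix x_at) that may also bind transcripts of related genes. Its values are therefore uncertain as to which mu class gene they count.

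Array medians lay between 6.59 and 6.73 (log2) at E8.5 and between 6.97 and 7.01 at E10.5, and the 3 arrays of a group correlated across genes at r = 0.975 to 0.992. The yolk sac label was borne out by Afp, the fetal serum protein of visceral endoderm, at 14.26 to 14.64 in wild type E8.5 pools, and by the embryonic globin Hbb-bh1 at 14.55 to 14.69. Ndp, the Norrin gene, lay between 4.45 and 4.68 in all 12 pools; whether its probes match the transgene is not given, so this checks nothing about the labels. Replicate 2 of each Norrin group stood apart by trophoblast markers, of which 7 of the 12 listed were measured. Their median lay 1.25 above the wild type mean of the stage in Norrin E8.5 replicate 2 and 1.79 above it in Norrin E10.5 replicate 2, against -0.28 to 0.16 in the other 10 pools. Their summed linear level was 1812 to 2456 in wild type and 1899.8 to 5112 in Norrin at E8.5, and 1201 to 1998 and 2356 to 10100.4 at E10.5. The spongiotrophoblast gene Tpbpa stood at 11.90 in Norrin E10.5 replicate 2 and at 5.63 to 6.55 in the other E10.5 pools. Effects at E10.5 without that pool are given for Gsta3, Nqo2, Gstm1 and Nqo1; those of the other 6 genes ran from -0.68 to 0.14 without it, and 0 of these 6 passed by limma with or without it (with it, 3 of them had an unadjusted p under 0.05).

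At E10.5 the Norrin yolk sacs had less transcript of Gsta3 and Nqo2. Gsta3 was 5.41-fold lower and Nqo2 2.56-fold lower than in wild type, and 7 of the other 8 genes had effects below 0 that did not pass the threshold, an adjusted p under 0.05 by limma over all genes. Effects over the 10 genes ranged from -2.44 (Gsta3) to 0.12 (Gstm5), with a median of -0.65 against -0.004 over all genes. Of all genes 4.07% passed, with 2.22% lower and 1.85% higher than wild type; 6 of the 10 genes had an unadjusted p under 0.05, as had 14% of all genes. The genes were chosen with results of these arrays known, so these counts describe them and are no test of the group. In whole tissue, fewer cells of a type and less RNA per cell cannot be told apart.

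**Figure D1:**
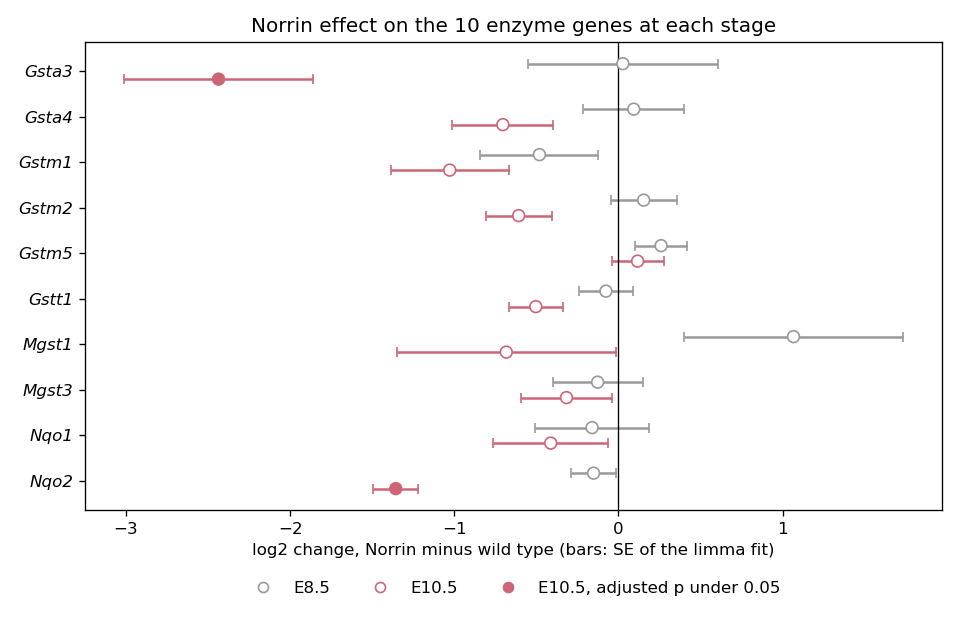
Effect of ectopic Norrin (Norrin minus wild type, log2) on each of the 10 genes at E8.5 (grey) and E10.5 (red); points are limma estimates from 3 against 3 arrays, bars their standard errors, and filled points have an adjusted p under 0.05. At E10.5 all points but Gstm5 lie below 0 and Gsta3 and Nqo2 are filled; at E8.5 the points lie between -0.48 and 1.07 with none filled.

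Nqo2 encodes a flavoprotein quinone reductase that takes its electrons from dihydronicotinamide riboside in place of NADPH. In wild type E10.5 pools its log2 level was 9.30, 9.30 and 9.04, and in Norrin pools 7.89, 7.90 and 7.78. The groups lay far apart. Nqo2 fell by 1.36 (SE 0.14, adjusted p = 0.00042 by limma) and ranked 14 of 18193 genes by p. Its other probe sets gave -1.35 and -0.99. The call held under each of 24 other settings tried, with effects from -1.47 to -1.23 and adjusted p from 1.9e-05 to 0.0034.

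Gsta3 encodes an alpha class transferase that conjugates epoxides such as that of aflatoxin B1. Its log2 level in wild type E10.5 pools was 8.81, 9.77 and 8.61, and in Norrin pools 5.46, 8.39 and 6.04. The groups did not overlap, but Norrin replicate 2, the pool high in trophoblast markers, lay just under the lowest wild type pool, while Norrin replicates 1 and 3 stood far below it. Gsta3 fell by 2.44 (SE 0.58, adjusted p = 0.0349), and its other, dimmer probe set went from 6.90 ± 0.63 to 5.63 ± 0.58 (SD, n = 3), a change of -1.27. Without Norrin E10.5 replicate 2 the effect was -3.31 (adjusted p = 0.00044). The call was lost (adjusted p = 0.0507 to 0.157) when any of wild type E8.5 replicate 1, Norrin E8.5 replicate 2, the 3 wild type E10.5 pools or Norrin E10.5 replicates 1 and 3 was left out, with -1.85 as the effect nearest to 0, and in a fit to the 6 E10.5 arrays alone (adjusted p = 0.129).

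**Figure D2:**
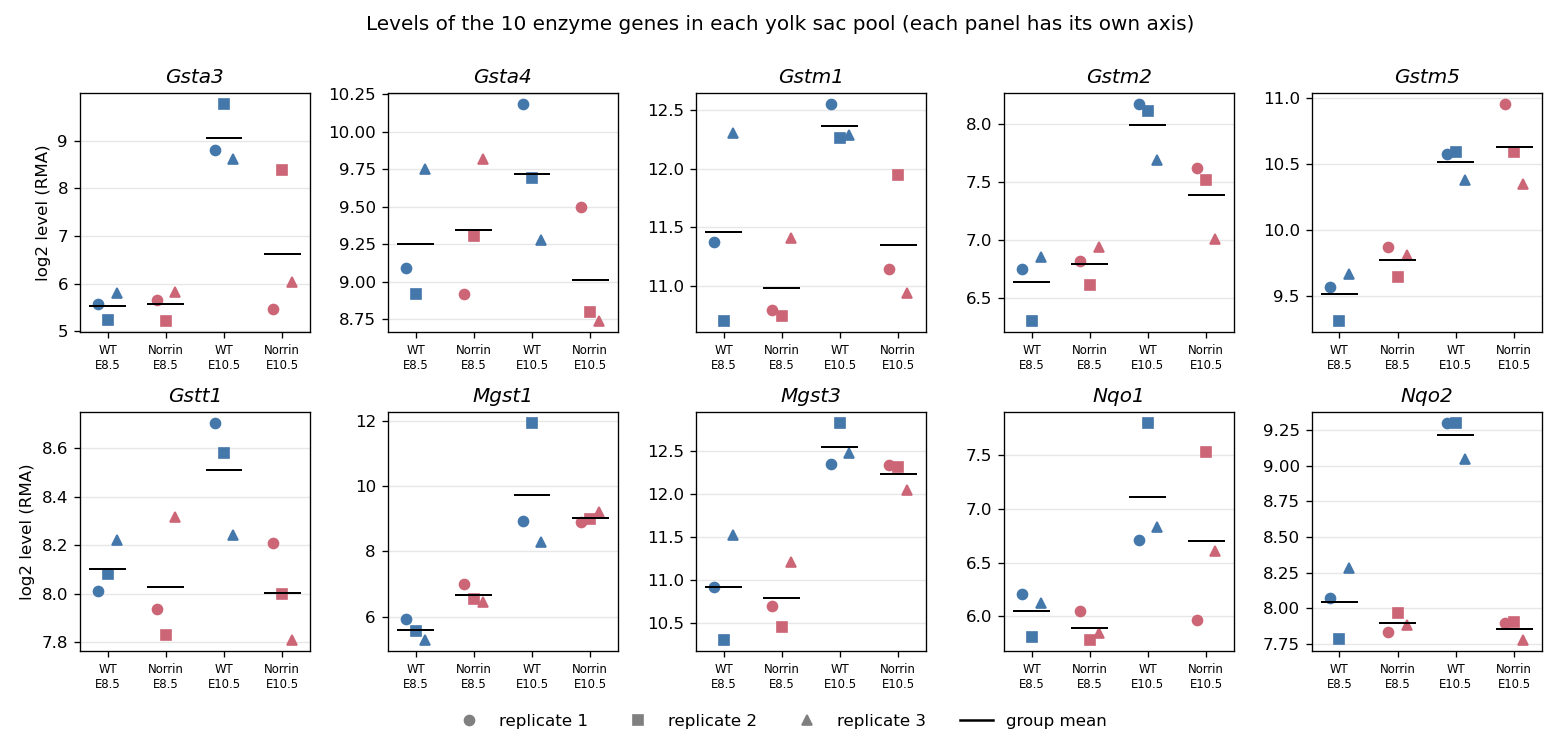
Log2 level (RMA) of each of the 10 genes in the 12 yolk sac pools, wild type (WT, blue) and Norrin (red); symbols give the replicate number, lines the group mean of 3 pools, and each panel has its own axis. Nqo2 in Norrin at E10.5 stands at 7.78 to 7.90 while wild type stands at 9.04 to 9.30, and in Gsta3, Mgst1, Mgst3 and Nqo1 the square of replicate 2 stands highest among the wild type E10.5 pools.

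Same-numbered pools deviated together within each stage, some of them weakly (r = 0.21 for number 2 at E10.5, where a pair of other numbers reached 0.16). Differences within a number and a fit with the replicate number as a block are therefore given as well. The labels do not state that the numbers pair the pools, and results with the block depend on that pairing. With that block 6 of the 10 genes were lower at E10.5: Gsta3 (adjusted p = 0.0012), Nqo2 (0.00027), Gstm2 (0.0029), Gsta4 (0.0062), Gstt1 (0.0088) and Gstm1 (0.0197). The block raised the share of all genes called to 13.2%, with 6.8% lower. In 8 of the 10 genes all 3 same-numbered differences were below 0, as in 24.1% of all genes, and in 6 the Norrin pools all lay below the wild type pools, as in 11.5%.

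Among the other alpha and mu class genes, the differences within numbers were of even size in Gsta4 and Gstm2 and uneven in Gstm1. Gsta4, which clears the lipid peroxidation product 4-hydroxynonenal, stood at 10.18, 9.69 and 9.27 in wild type E10.5 and at 9.50, 8.80 and 8.74 in Norrin, so the groups overlapped while each Norrin pool lay 0.54 to 0.89 below its number. Its effect was -0.70 (SE 0.31, adjusted p = 0.314; 0.0062 with the block). Gstm2 stood at 8.17, 8.11 and 7.69 in wild type and at 7.62, 7.52 and 7.01 in Norrin, without overlap, at -0.61 (SE 0.20, adjusted p = 0.145; 0.0029 with the block). Gstm1 stood at 12.55, 12.26 and 12.29 in wild type and at 11.15, 11.95 and 10.94 in Norrin. Norrin replicate 2 was again the pool nearest to wild type, and the effect was -1.03 (SE 0.36, adjusted p = 0.173; 0.0197 with the block), or -1.33 (adjusted p = 0.0857) without that pool. The other 3 Gstm1 probe sets gave -1.08, -0.80 and -0.70.

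Gstm5 was the exception in sign. It stood at 10.58, 10.59 and 10.38 in wild type E10.5 and at 10.95, 10.59 and 10.35 in Norrin, and the groups overlapped throughout. Its effect was 0.12 (SE 0.16, adjusted p = 0.899), and -0.04 without Norrin replicate 1, the pool with the highest level. The neighbouring Gstm2 and Gstm1 had effects of -0.61 and -1.03; whether these differ from that of Gstm5 was not tested.

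Gstt1, the theta class enzyme that also acts on small halogenated compounds, stood at 8.70, 8.58 and 8.24 in wild type E10.5 and at 8.21, 8.0 and 7.81 in Norrin, with the groups just apart. Its effect was -0.50 (SE 0.16, adjusted p = 0.139; 0.0088 with the block), and the same-numbered differences ran only from -0.58 to -0.43.

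The membrane-bound enzymes behaved less evenly. Mgst3, which also reduces lipid hydroperoxides, stood at 12.35, 12.83 and 12.48 in wild type E10.5 and at 12.34, 12.32 and 12.05 in Norrin, an effect of -0.32 (SE 0.27, adjusted p = 0.764). Mgst1, the abundant transferase of endoplasmic reticulum and outer mitochondrial membrane in liver, stood at 8.91, 11.92 and 8.29 in wild type and at 8.91, 8.98 and 9.19 in Norrin. Wild type replicate 2 stood far above every other pool. The effect of -0.68 (SE 0.67, adjusted p = 0.812) turned to 0.42 (adjusted p = 0.580) without that pool. A dim further Mgst1 probe set gave 0.06 and did not show the high pool, its 3 wild type arrays having an SD of 0.13 around 4.68.

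Nqo1, the NADPH-dependent quinone reductase and a standard readout of NRF2, stood at 6.71, 7.80 and 6.83 in wild type E10.5 and at 5.96, 7.53 and 6.61 in Norrin. Replicate 2 was high in both genotypes and the groups overlapped. Its effect was -0.41 (SE 0.35, adjusted p = 0.752; 0.0508 with the block), -0.83 (adjusted p = 0.210) without Norrin replicate 2 and -0.07 without wild type replicate 2. As a description, Gsta3 and Nqo1 were the pair of the 10 genes whose deviations from their group means were most alike (r = 0.92 over 12 arrays), ahead of Gstm2 and Gstm5 (0.89) and of Gsta4 and Gstt1 (0.85).

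**Figure D3:**
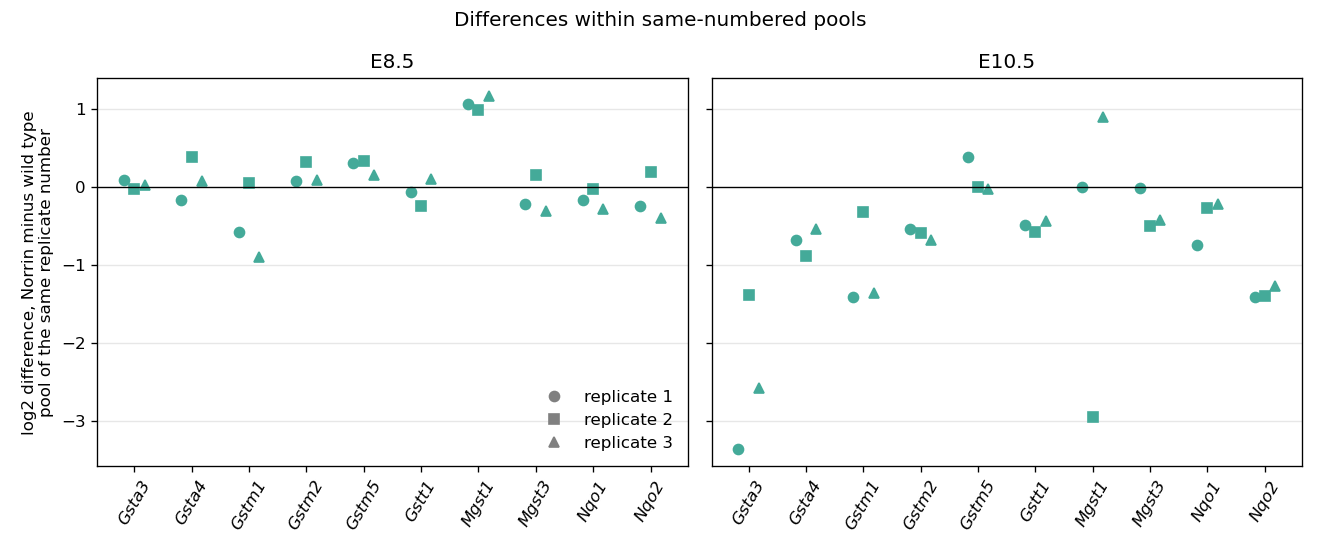
Log2 difference between the Norrin pool and the wild type pool of the same replicate number, for the 10 genes at E8.5 (left) and E10.5 (right); symbols give the number. At E10.5 Nqo2 runs from -1.41 to -1.27 and Gsta3 from -3.35 to -1.38, while Mgst1 spreads from -2.94 to 0.90; at E8.5 the Mgst1 differences lie together at 0.98 to 1.16.

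At E8.5 no gene of the 10 passed the threshold by limma, and 0 had an unadjusted p under 0.05; over all genes 0.077% passed, and 7.22% had an unadjusted p under 0.05. Of the calls over all genes 71.4% were higher, or 81.8% with each array centred on its median. Effects ran from -0.48 (Gstm1) to 1.07 (Mgst1) with a median of -0.02, which was also that of all genes. Gsta3 stood at 5.57, 5.24 and 5.80 in wild type and at 5.65, 5.21 and 5.83 in Norrin, with differences within numbers from -0.03 to 0.08. Nqo2 stood at 8.07, 7.78 and 8.28 in wild type and at 7.83, 7.97 and 7.88 in Norrin, an effect of -0.15 (SE 0.14, adjusted p = 0.798). The 2 genes that fell at E10.5 thus overlapped between genotypes at E8.5. Gsta3 was dim at that stage, with means of 5.54 in wild type and 5.56 in Norrin against a median gene level of 7.68. A fall of Gsta3 at E8.5 could therefore have been understated.

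Mgst1 had the largest effect at E8.5. It stood at 5.94, 5.57 and 5.28 in wild type and at 7.0, 6.55 and 6.44 in Norrin, so that every Norrin pool lay above every wild type pool, as in 5.89% of all genes. The effect was 1.07 (2.09-fold higher, SE 0.67, adjusted p = 0.740; 0.300 with the block). That standard error pools the spread of all 4 groups, among them the wild type E10.5 pools with an SD of 1.94; within E8.5 the SDs were 0.33 and 0.30. With the block and no arrays but the 6 of E8.5, a setting added after the values were seen, the adjusted p was 0.0053 and 1.06% of all genes were called. The dim further Mgst1 probe set gave -0.05. Gstm5 and Gstm2 also had same-numbered differences above 0 in all 3 numbers, at 0.14 to 0.33 for Gstm5, as had 19.7% of all genes. Their effects of 0.26 (SE 0.16, adjusted p = 0.738) and 0.15 (adjusted p = 0.867) did not pass.

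The difference between the Norrin effects at E10.5 and at E8.5 (interaction) passed for Nqo2 alone of the 10, at -1.20 (SE 0.19, adjusted p = 0.0463 by limma), where 0.0934% of all genes passed. This call was close to the threshold: it held without wild type E8.5 replicate 3 and was lost without any of the other 11 arrays (adjusted p = 0.0544 to 0.156). Over 22 settings it was past the threshold in 7, with effects from -1.42 to -1.07 and adjusted p from 0.0002 to 0.170. By limma over all probe sets the chosen Nqo2 probe set had an adjusted p of 0.0531. The other Nqo2 probe sets gave -0.80 (adjusted p = 0.209) and -1.23 (adjusted p = 0.182) in that fit. With the block, Nqo2 (adjusted p = 0.0133), Gsta3 (-2.46; 0.430 without and 0.0220 with the block) and Gstm2 (-0.76; 0.528 and 0.0218) passed, where 2.07% of all genes did. Without Norrin E10.5 replicate 2 the Gsta3 interaction was -3.34 (adjusted p = 0.0184). Gsta3 was dim at E8.5 in both genotypes, which limits how far a fall could show at that stage. In none of the 10 genes was the interaction above 0, and the median was -0.65 against 0.03 over all genes.

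Between stages most of the 10 genes were higher at E10.5 in wild type. The submitters' notes do not say whether the stages were normalized together. Arrays of the same stage shared 116 to 471 exactly equal values and arrays of different stages 0 to 2. Each stage may therefore have been normalized on its own, and then stage and normalization run cannot be told apart. Mgst1 was 17.3-fold higher (4.11, SE 0.67, adjusted p = 0.00068) and Gsta3 11.5-fold (3.53, SE 0.58, adjusted p = 0.00073). Without wild type E10.5 replicate 2, the pool with Mgst1 at 11.92, the Mgst1 stage effect was 3.01 (adjusted p = 3.5e-05). The dim further Mgst1 probe set did not show the rise, at -0.21 (adjusted p = 0.188 by limma over all probe sets). The further probe sets of Gsta3 and Mgst3 gave 2.27 and 0.50, and those of Nqo2 1.19 and 0.51. Those of Gstm1 gave 1.02, 0.54 and -0.12, so the last did not show a rise. Mgst3 (1.63), Gstm2 (1.36), Nqo2 (1.17, adjusted p = 7.8e-05), Nqo1 (1.07, adjusted p = 0.0343) and Gstm5 (1.00) rose as well, which makes 7 of 10 where 25.4% of all genes were called higher. The genes not called were Gstm1 (0.91, adjusted p = 0.0712), Gsta4 (0.46) and Gstt1 (0.40, adjusted p = 0.0802); Gstm1 passed without wild type E8.5 replicate 3 and Gstt1 without wild type E10.5 replicate 3. Nqo1 lost its call without wild type E10.5 replicate 2 (0.72, adjusted p = 0.146) or any wild type E8.5 pool (adjusted p = 0.0531 to 0.109).

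In Norrin yolk sacs 4 of the 10 genes were called higher at E10.5 than at E8.5, where 28.2% of all genes were. They were Mgst1 (2.36, adjusted p = 0.0150), Mgst3 (1.44), Gstm5 (0.86) and Gstm2 (0.60, adjusted p = 0.0347). The further probe sets of Mgst1 and Mgst3 gave -0.10 and 0.70. Nqo2 had a stage effect of -0.04. Its other probe sets went opposite ways, at 0.39 and -0.73 (adjusted p = 0.0337 and 0.0105 by limma over all probe sets). The other Gsta3 probe set gave 1.05 (adjusted p = 0.0180 by limma over all probe sets), and the chosen one 1.06 (adjusted p = 0.167). Without Norrin E10.5 replicate 2, which alone lay far above the E8.5 pools, the Gsta3 stage effect was 0.19 (adjusted p = 0.708), and without Norrin E10.5 replicate 1 it was 1.65 (adjusted p = 0.0390). The stage effects share pools with the Norrin effects and are no separate support for them. Gstm2 lost its call without any of Norrin E8.5 replicates 1 and 2 and Norrin E10.5 replicates 1 and 2. With both Norrin pools of number 2 left out, 2 genes remained called, Mgst3 and Gstm5.

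The scaling of the stages moved these calls. With each array centred on its median, the median stage effect of all genes went from 0.14 to -0.16 in wild type and from 0.15 to -0.21 in Norrin, and the share of calls that were higher from 78.1% to 32.7% and from 74.4% to 28.3%; with all 12 arrays quantile-normalized together the shares were 46.3% and 46.0%. Of the 10 genes, 6 stayed called higher in wild type under either scaling (Nqo1 was lost) and 3 in Norrin (Gstm2 was lost). The percentages above are shares of the calls. The share of all genes called higher under these scalings is not given here, so these counts have no background beside them. Under centring Nqo2 was called lower in Norrin at E10.5 (-0.40, adjusted p = 0.0273).

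Of the other glutathione transferases, 18 of the 20 listed were measured at E10.5. Of these 4 fell and 0 rose, 8 had an unadjusted p under 0.05 and 3 had effects above 0, with a median of -0.38 against -0.004 over all genes. With the block 9 were lower. To set beside this list and those that follow, 2.22% of all genes fell, 1.85% rose and 14% had an unadjusted p under 0.05. With the block 13.2% of all genes were called and 6.8% were lower. Gsta2, an alpha class enzyme, stood at 8.38, 7.47 and 8.23 in wild type E10.5 and at 6.36, 5.63 and 6.83 in Norrin (-1.76, adjusted p = 0.0052). Gstm4 stood at 9.83 to 10.38 in wild type and at 8.44 to 8.95 in Norrin (-1.42, adjusted p = 0.0036). The theta class Gstt3 fell by 0.97 (adjusted p = 0.0055). Gstp1, the pi class enzyme, fell by 0.66 (adjusted p = 0.0172), from 12.35 to 11.69. In each of these 4 genes the Norrin pools lay below all wild type pools, as in 11.5% of all genes. Each kept its call without Norrin E10.5 replicate 2.

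Few of the genes that make and use glutathione passed. Of 19 measured glutathione synthesis and peroxidase genes 2 fell at E10.5 and 0 rose (median -0.08), and 3 fell and 3 rose with the block. The glutaredoxin Glrx stood at 11.65, 11.46 and 11.29 in wild type and at 10.51, 10.55 and 10.08 in Norrin (-1.08, adjusted p = 0.0068). The peroxidase Gpx1 fell by 0.66 (adjusted p = 0.0327; 0.0687 without Norrin E10.5 replicate 2). Of all genes 1.41% were called at E8.5 with the block. None of this list passed at E8.5 by limma, 2 had an unadjusted p under 0.05, and 2 were higher with the block. Its largest effect there was that of the dipeptidase Dpep1, which degrades glutathione conjugates (1.07, adjusted p = 0.0779).

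Neither NRF2 nor its regulators passed. Nfe2l2 stood at 10.84, 10.72 and 10.85 in wild type E10.5 and at 10.96, 10.88 and 11.05 in Norrin (0.16, adjusted p = 0.700), and Keap1 had an effect of 0.02 (adjusted p = 0.986). Of the 11 regulators 0 passed by limma at E10.5, with 1 at an unadjusted p under 0.05 and 1 higher with the block (median 0.11). Of 20 other NRF2 targets measured, 1 fell and 0 rose (median 0.02), with 1 lower and 2 higher with the block. The gene that fell was Blvrb, a biliverdin reductase that is abundant in red cells, at 9.93, 10.29 and 10.69 in wild type and 9.07, 9.14 and 8.64 in Norrin (-1.35, adjusted p = 0.0025). Hmox1, heme oxygenase and a classical NRF2 target, named here after its values were seen, had the highest effect of the list at 1.04 (adjusted p = 0.277), with Norrin replicate 2 at 12.98 and the other E10.5 pools at 10.34 to 11.62.

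**Figure D4:**
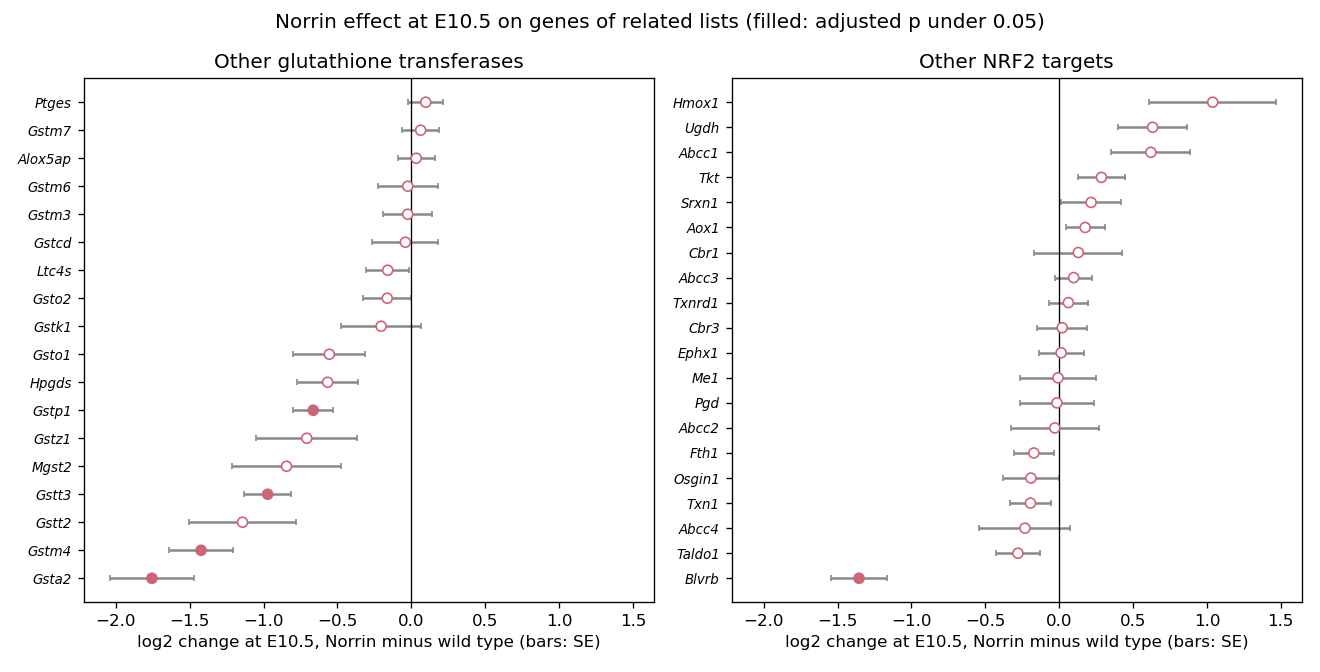
Effect of ectopic Norrin at E10.5 (Norrin minus wild type, log2) on 18 other glutathione transferases (left) and 20 other NRF2 targets (right); points are limma estimates from 3 against 3 arrays, bars their standard errors, filled points have an adjusted p under 0.05. On the left 15 of 18 points lie below 0 and Gsta2, Gstm4, Gstt3 and Gstp1 are filled; on the right the points lie on both sides of 0 and Blvrb alone is filled.

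Of 8 genes of the AHR pathway 1 rose at E10.5, Tiparp, a feedback inhibitor of the receptor (9.95, 9.89 and 9.92 in wild type, 10.66, 10.65 and 10.91 in Norrin; 0.82, adjusted p = 0.0104). A further list held other detoxification enzymes, among them phase II enzymes and dehydrogenases. Of its 17 genes measured 2 fell: the alcohol dehydrogenase Adh1 (-2.68, adjusted p = 0.00044) and the methyltransferase Tpmt (-0.86, adjusted p = 0.0323, or 0.0920 without Norrin E10.5 replicate 2). At E8.5 none of the related lists, from the other transferases to the other detoxification enzymes, had a member past the threshold by limma. An unadjusted p under 0.05, found in 7.22% of all genes, was reached by 2 of 18 other transferases, 0 of 11 NRF2 regulators and 0 of 20 other NRF2 targets. It was also reached by 1 of 8 AHR genes and 2 of 17 other detoxification enzymes. With the block 1 of these 17 was lower, as were 0.61% of all genes.

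Markers of several cell types moved at E10.5 as well, and their part in the lower transferase and Nqo2 levels was not tested. Over all genes 2.22% were lower and 1.85% higher, and with the block 13.2% were called and 6.8% were lower. Of 21 visceral endoderm markers 4 were lower and 0 higher (median -0.34; 9 and 3 with the block), and their summed linear level was 190155 to 209051 in wild type and 161021 to 162506 in Norrin. Of 14 erythroid markers 8 were lower (median -1.46; 13 with the block), with sums of 67089.9 to 100672 against 54319 to 61029.7. Of 12 parietal endoderm markers 5 were higher (median 0.70; 8 with the block), with sums of 26914 to 30593 against 43874 to 49339.7. Of 10 mesenchyme markers 1 was higher (median 0.34, and 5 with the block), with sums of 51662 to 64151 against 70509 to 70774. Of 8 decidua markers 1 was higher (median 0.44, and 2 with the block), with sums of 1841 to 2047 against 2592 to 3724. Other lists had few calls. Of 13 macrophage markers 1 was lower (median -0.07, and 1 with the block), and of 12 endothelial markers 1 was higher (median 0.08, and 2 with the block). Of 8 embryo neural markers 0 passed (median 0.06, and 1 higher with the block). Of 7 trophoblast markers 0 passed with or without the block (median 0.79). At E8.5 visceral endoderm sums were 174321 to 190658 in wild type and 136581 to 167517 in Norrin. Of the 21 markers 1 was lower there (5 lower and 3 higher with the block). Over all genes 0.077% were called at E8.5, and with the block 1.41% were called and 0.61% were lower. Without Norrin E10.5 replicate 2, the pool high in trophoblast markers, the Nqo2 effect at E10.5 was -1.38 (adjusted p = 0.0011).

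Genes whose pattern was most like that of the 2 genes that fell were sought over the 12 arrays after centring each gene within each stage, as a description. The centring kept the difference between genotypes, so lower levels of the genes found in Norrin at E10.5 follow from the choice. For Nqo2 they were Tango2 (r = 0.985), Pecr (0.980), a reductase of peroxisomal fatty acid metabolism, and Sema4g (0.979), with Norrin effects at E10.5 of -1.54, -1.74 and -1.15. For Gsta3 they were Plekhd1 (r = 0.959), Rnf138rt1 (0.940) and Gm4349 (0.940), with effects of -1.80, -1.86 and -2.23.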

How the data were processed

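The authors deposited log2 expression values of 45101 probe sets on 12 Affymetrix arrays. Per the submitters' processing notes the method was RMA, with no version given. RMA compresses differences of dim and of very bright probe sets. Arrays give no read depth, and their number limits the precision. Of the probe sets 34945 had 1 gene in the platform annotation, 932 several, 9160 none and 64 were controls; those with 1 gene gave 18193 genes, the probe set with the highest mean over 12 arrays standing for each of the 9010 genes with several. RefSeq tables matched 18032 genes by ID.

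Groups were compared in R 4.3.3 with limma 3.58.1 (a linear model with contrasts and eBayes, 1 mean per group, 12 arrays, 8 residual and 4.17 prior degrees of freedom), two-sided, with Benjamini-Hochberg adjustment over all genes and a threshold of 0.05. Adjusted p-values in the text are from this fit unless a setting is named. On simulated data with 18193 genes the E10.5 contrast recovered 76 of 100 genes changed by 1 and 100 of 100 changed by 2 (log2). The labels number the replicates alike in every group. The deviations of same-numbered pools correlated with r = 0.73, 0.32 and 0.73 for E8.5 and r = 0.51, 0.21 and 0.22 for E10.5. The numbers were used as a block by the rule of every same-numbered pair over 0.1. Pairs of other numbers reached 0.30 at E8.5 (wild type 2 with Norrin 1) and 0.16 at E10.5 (wild type 2 with Norrin 3). The rule therefore does not single out this pairing. The labels name no shared litter or day, and replicates are separate pools.

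The members and all gene lists were chosen with earlier results of these data known. The rule for named genes took all members, up to 4 called genes per list and Norrin contrast (or the largest effect where none was called), Nfe2l2, Keap1 and the 3 genes most like each called member. Alternatives varied the block, array weights, eBayes settings, scaling, probe set choice, filter and arrays left out. Not used: protein sequences.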

Additional observations from a re-analysis of the deposited data

Results flagged for a closer look

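The effect of Norrin on Nqo2 differed between the stages by a test of the difference itself: the interaction was -1.20 (SE 0.19, adjusted p = 0.0463 by limma over 18193 genes). All 3 Norrin pools at E10.5 lay below all 3 wild type pools, by 1.27 to 1.41 within numbers, while at E8.5 the differences within numbers were -0.24, 0.19 and -0.40. The call was lost without any of 11 of the 12 arrays and held without wild type E8.5 replicate 3. The other Nqo2 probe sets had interactions of -0.80 and -1.23 that did not pass (adjusted p = 0.209 and 0.182 by limma over all probe sets).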

How the results depend on the processing

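Over the log2 changes of the 10 genes in every contrast and setting, 1043 values kept direction and side of the threshold. Of the rest, 37 lost a call, 27 gained one and 28 changed sign. Settings such as the block, the eBayes trend or omission of an array outside the contrast leave the estimate unchanged. Direction could not turn there, so the tally is no measure of how stable the directions are. Where no cause is named below it was not tested. The block on the replicate number within the stage moved the genes called from 14 to 257 at E8.5, from 741 to 2400 at E10.5 and from 17 to 376 for the interaction, and the called genes of the 10 from 2 to 6 at E10.5 and from 1 to 3 for the interaction; it changed no call of the 10 at E8.5. The block across both stages gave 5 genes at E8.5 and 0 of the 10 for the interaction (3 at an unadjusted p under 0.05 by limma). Array weights, which ran from 0.22 to 8.03, gave 5147, 2316, 2728, 10797 and 11639 genes for E8.5, E10.5, the interaction and the stage effects in wild type and in Norrin, with 1 of the 10 called at E8.5 (Gstm5, 0.32, adjusted p = 0.0285) and 4 for the interaction. The 6 arrays of a stage alone called in limma 0 genes for E8.5 (951 had an unadjusted p under 0.05) and 1 of the 10 at E10.5. With the block as well, an alternative chosen after seeing the data, they called 193 genes at E8.5 and 2004 at E10.5, and 1 (Mgst1) and 6 of the 10. Without both Norrin pools of number 2, also chosen after seeing the data, 1 gene was called at E8.5, 481 at E10.5 and 3853 for the Norrin stage effect, with 2 of the 10 in the last. With 1 array left out the genes called ran from 1 to 20 at E8.5, from 353 to 894 at E10.5 and from 5 to 36 for the interaction, and those of the 10 from 1 to 2 at E10.5 and from 0 to 1 for the interaction. The interaction gave 29 genes with 12 arrays quantile-normalized together, 37 with the mean over probe sets and 26 with every probe set tested, and 0 of the 10 with the latter or with the eBayes trend (3 at an unadjusted p under 0.05 by limma in both). The dim filter, which tests fewer genes, gave 2576 and 3279 genes for the stage effects in wild type (5915 otherwise) and Norrin (6895), and every probe set, which tests more features, 11401 and 12998.

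Some signs turned. At E8.5 with 1 array left out, Gsta3 ran from -0.12 to 0.21, Mgst3 from -0.44 to 0.18, Gsta4 from -0.14 to 0.34, Gstm2 from -0.015 to 0.26 and Gstt1 from -0.22 to 0.022. Array weights gave -0.030 for Gsta3, 0.11 for Mgst3 and 0.13 for Nqo2, the mean over probe sets -0.011 for Gsta3, and leaving out both Norrin pools of number 2 gave 0.040 for Mgst3 and 0.022 for Gstt1. At E10.5 with 1 array left out Mgst1 ran from -1.39 to 0.42 (0.037 with array weights) and Gstm5 from -0.044 to 0.26. For the interaction Mgst3 ran from -0.50 to 0.12 (0.0063 with the mean over probe sets) and Nqo1 from -0.67 to 0.12. For the stage effect in Norrin Gstt1 ran from -0.12 to 0.12 (0.071 with array weights), Nqo2 from -0.070 to 0.0023, and Gstm1 was -0.057 without both pools of number 2. Probe sets near the array's floor, such as the further ones of Mgst1 and Gsta3, may understate changes, and so may the chosen Gsta3 probe set at E8.5. Background correction and slide were not varied, since RMA values were the data used here.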
